A study of Mus musculus with 30 samples.

Results

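The nucleus pulposus of 23-month-old C57BL/6 (BL6) mice was compared with that of 6-month-old BL6 mice. The arrays were taken by their strain and age labels, with no measured value used, which gave 7 arrays of 23-month-old mice (23M) and 7 of 6-month-old mice (6M), 14 of the 30 arrays in the series. Each array held RNA of the nucleus pulposus pooled from the caudal discs of 1 animal, hybridised to a 1-colour Clariom S array, and carried 19505 genes with 1 symbol each. The animals of both ages were of the inbred C57BL/6 background, with no transgene, deletion or treatment named in the labels, and the study's methods give both sexes at each age: the mean Y-linked level was high on 3 of 7 arrays at 23M and on 3 of 7 at 6M. The 6 arrays of 23-month-old and 4 of 6-month-old LG/J mice, another inbred strain, enter the fit that estimates the spread. They otherwise serve only to set the age differences of the BL6 animals against those of a different background. The titles of all BL6 arrays carry the same date, and those of all LG/J arrays carry a different date. Strain and this date cannot be told apart. The tissue is bulk, so that fewer cells of a type and less RNA per cell cannot be told apart in any value given here, and the 6M arrays of BL6 carry the numbers before those of 23M in their titles, so that array order and age cannot be told apart either.

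The nucleus pulposus is the gelatinous core of the intervertebral disc. It derives from the notochord, has no vessels of its own, and its cells live at low oxygen and high osmolarity while they produce a hydrated matrix in which the proteoglycan aggrecan holds water against the load on the spine. The fibrous annulus, the cartilaginous endplates, the marrow of the vertebral bodies and, around the tail spine, skeletal muscle lie close to it. With age the tissue is known to lose matrix and cells or to change the kind of cell it holds, and discs of inbred strains differ in how far this goes.

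Markers of the tissue were present at both ages. Of 22 measured nucleus pulposus markers, 17 were above the negative controls, and their differences between ages ran from -0.55 to 0.35. Car3, which encodes a carbonic anhydrase abundant in notochordal nucleus pulposus cells, lay at 19.20 to 19.37 log2 units on the 23M arrays and at 19.20 to 19.40 on the 6M arrays, close to the top of the scale of the array, where a difference may not show. The keratin gene Krt19 averaged 16.92 ± 0.11 at 23M and 17.20 ± 0.18 at 6M (SD, n = 7 each), and Slc2a1, the glucose transporter GLUT1, averaged 18.61 ± 0.19 at 23M and 18.48 ± 0.12 at 6M. The mean level of the 22 markers was 11.37 to 11.59 on the 23M arrays and 11.48 to 11.64 on the 6M arrays. All levels are the deposited log2 values, in which a difference of 1 is a doubling, and they are compared between arrays for the same gene and not between genes. The median of all genes lay between 6.43 and 6.51 on the 14 arrays, and each of the 14 arrays had its closest correlate among arrays of its own age, with a median correlation over all genes of 0.991 within 23M, 0.991 within 6M and 0.989 between ages. The median of the negative control probes, which match no mouse transcript, was 5.78 to 5.93 on the 23M arrays and 5.95 to 6.07 on the 6M arrays, so that the background itself was lower at 23M on every array. A group whose mean lay below that of its own negative controls is called not above the negative controls here, and a fold change that involves such a group is bounded by the control level.

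At 23M, 324 of 19505 genes differed from 6M (1.66%, limma with Benjamini-Hochberg adjustment over all genes, adjusted p below 0.05), 218 of them higher (1.12% of all genes) and 106 lower (0.543%). A 2-fold difference was reached by 70 of the higher and 29 of the lower genes. The median size of a called difference was 0.75 log2 units, and the median difference over all genes was 0.00 with a median SE of 0.14. At an unadjusted p under 0.05, 2502 genes (12.8%) differed. In 170 genes (0.872% of all) no 23M array overlapped a 6M array, and 133 of the 324 called genes were among them. Of the called genes, 30 were not above the negative controls in either age and 37 in only 1 of the ages. When the 14 BL6 arrays were fitted without those of LG/J, the number called was 296 (1.52%), of which 190 were higher (0.974%) and 106 lower, and 248 were called in both fits.

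**Figure D1:**
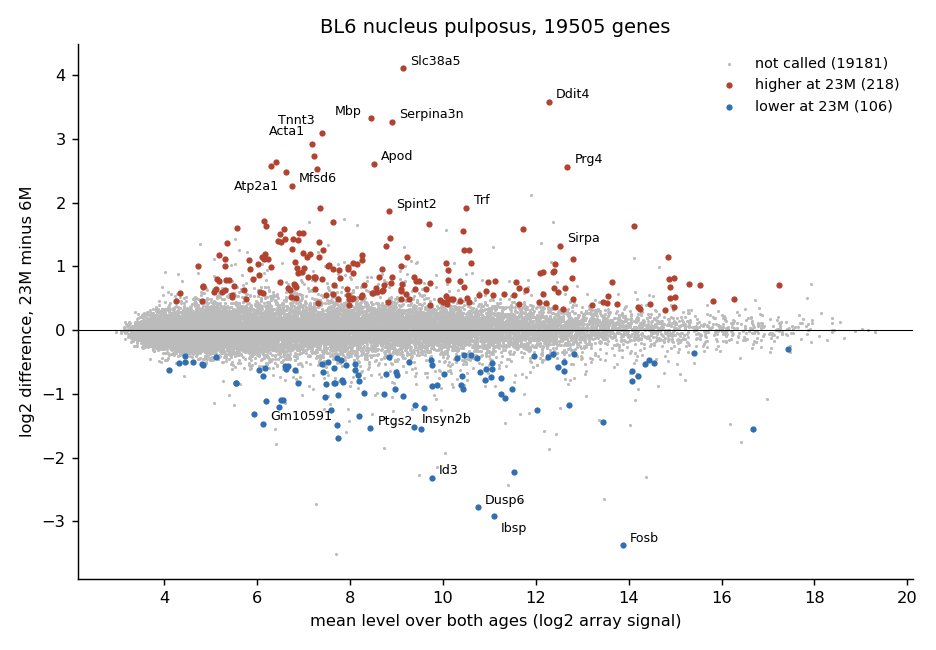
Log2 difference between 23M and 6M nucleus pulposus of BL6 mice (y axis) against the mean log2 level over both ages (x axis) for the 19505 genes, each point a gene, with the 218 genes called higher at 23M in red and the 106 called lower in blue. Slc38a5 has the largest difference above 0 and most genes lie close to 0 at every level.

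Beside muscle genes, which are described further on, the largest rises with age without overlap were in genes of transport, stress signalling, acute phase response and lubrication. Slc38a5 encodes a sodium-coupled transporter of glutamine and other neutral amino acids. Its level was 9.63, 10.89 and 12.92 (lowest, median and highest of 7) at 23M, against 6.46, 7.13 and 7.75 at 6M. No array of one age overlapped the other, and the difference of 4.11 ± 0.37 log2 units (SE) was a 17.2-fold rise (adjusted p = 1.759e-07). Ddit4, whose product REDD1 restrains mTORC1 signalling under hypoxia and other stress, was at 12.88, 14.10 and 14.80 at 23M and at 7.86, 10.66 and 12.05 at 6M. The 6M arrays were widely spread but all below the 23M arrays, and Ddit4 rose 12.0-fold (3.58 ± 0.49, adjusted p = 8.789e-05). Both calls held in every alternative tried.

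Among secreted proteins, Serpina3n, a serine protease inhibitor of the acute phase, was at 9.22, 10.44 and 12.69 at 23M against 6.05, 7.19 and 8.51 at 6M, a 9.63-fold rise (3.27 ± 0.63, adjusted p = 0.004354). Apod, a lipid-binding apolipoprotein, was at 8.82, 9.68 and 11.34 at 23M against 6.44, 7.19 and 8.14 at 6M, a 6.10-fold rise (2.61 ± 0.33, adjusted p = 2.867e-05). Prg4, the lubricating proteoglycan lubricin of joint surfaces, was at 12.86, 14.03 and 15.23 at 23M against 9.79, 11.65 and 12.37 at 6M, a 5.89-fold rise (2.56 ± 0.47, adjusted p = 0.003035). In all 3 genes every 23M array lay above every 6M array. Trf, the iron carrier transferrin, was at 10.41, 11.41 and 12.32 at 23M against 8.39, 9.53 and 10.40 at 6M, and it rose 3.77-fold with the highest 6M array just under the lowest 23M array (adjusted p = 0.004354). Mfsd6, a membrane protein of the major facilitator family, was at 7.41, 7.90 and 8.46 at 23M, while at 6M it was not above the negative controls, so that its rise was at least 3.62-fold (adjusted p = 7.812e-06). With the mean level of skeletal muscle genes added to the fit as a covariate, the differences of Serpina3n, Prg4 and Trf were 2.56, 1.88 and 1.56 and were no longer called (adjusted p = 0.1734, 0.1735 and 0.1558), while that of Apod still was. The muscle level was higher on all 7 arrays at 23M than on any 6M array. A call lost with this covariate, here or below, therefore does not tell muscle level and age apart.

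The smallest p of all genes belonged to Spint2, an inhibitor of membrane-bound serine proteases, which was at 9.32, 9.87 and 10.07 at 23M against 7.40, 7.88 and 8.51 at 6M (3.63-fold higher, adjusted p = 6.975e-08). Sirpa, the receptor through which CD47 restrains phagocytosis, varied little within an age: its levels of 13.04, 13.20 and 13.25 at 23M stood against 11.64, 11.81 and 12.09 at 6M. It rose 2.50-fold (1.32 ± 0.12, adjusted p = 1.637e-07). Mef2c, a transcription factor of muscle and of hypertrophic cartilage, averaged 11.20 ± 0.27 at 23M and 9.65 ± 0.30 at 6M (SD, n = 7 each) without overlap, a 2.93-fold rise (adjusted p = 8.789e-05). Penk, which encodes the opioid precursor proenkephalin, averaged 8.31 ± 0.62 at 23M and 6.40 ± 0.29 at 6M, a 3.76-fold rise (adjusted p = 5.317e-05).

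**Figure D2:**
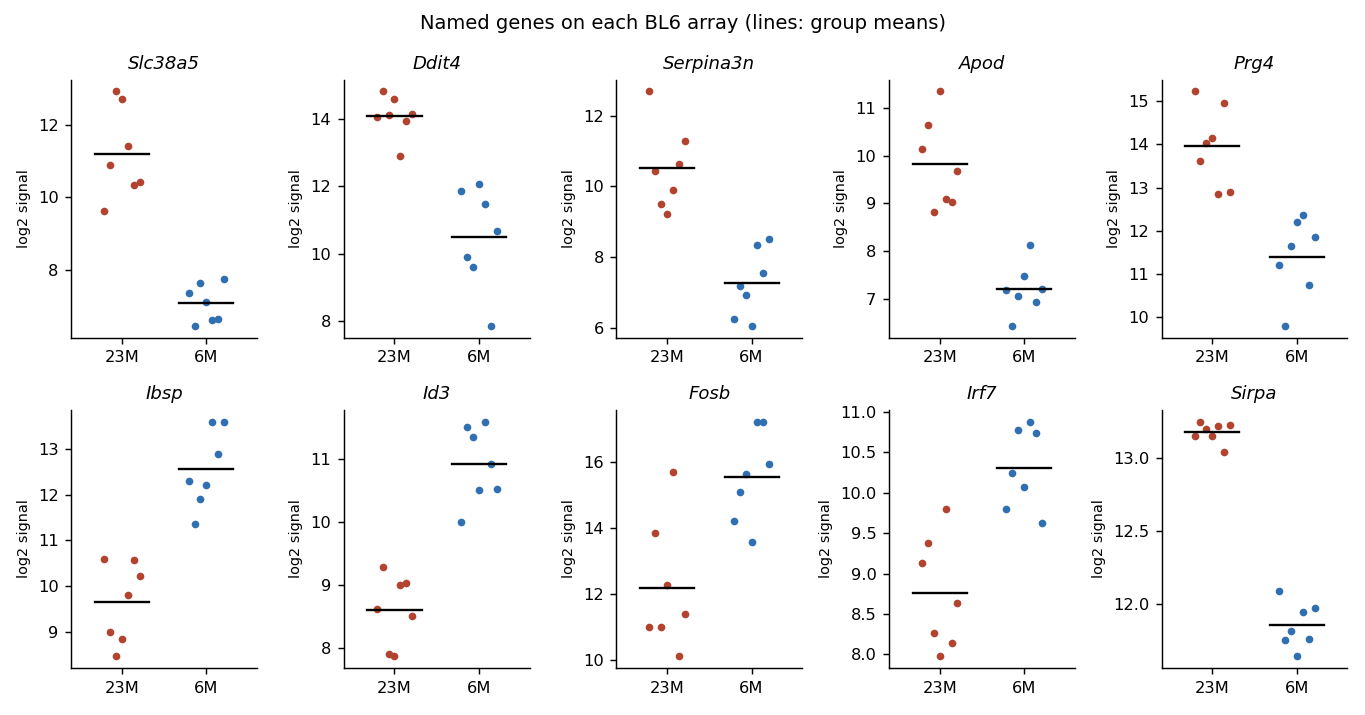
Deposited log2 level (y axis) of 10 genes on each of the 7 arrays of 23M and 7 of 6M BL6 mice, each point an array and each line a group mean. Slc38a5, Ddit4, Serpina3n, Apod, Prg4 and Sirpa lay higher on every 23M array, Ibsp and Id3 lower on every 23M array, while for Fosb and Irf7 the ages overlapped.

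The largest fall without overlap was in Ibsp, bone sialoprotein, an acidic phosphoprotein that binds hydroxyapatite in bone and mineralised cartilage. It was at 8.47, 9.81 and 10.59 at 23M against 11.36, 12.31 and 13.60 at 6M. All 23M arrays were below all 6M arrays, and Ibsp was 7.50-fold lower (-2.91 ± 0.37, adjusted p = 3.818e-05), a call kept in every alternative. Id3, an inhibitor of basic helix-loop-helix factors and a direct target of BMP signalling, was at 7.87, 8.63 and 9.28 at 23M against 10.01, 10.92 and 11.60 at 6M. It was 4.96-fold lower, again with no overlap (-2.31 ± 0.39, adjusted p = 0.00111). Insyn2b and Myrip, whose product links Rab27a vesicles to myosin, were lower by 2.86-fold and 2.33-fold (adjusted p = 0.00113 and 0.0001552). Dclk1, a microtubule-associated kinase, and Acvr1c, the type I receptor ALK7, were not above the negative controls at 23M. Their falls were at least 2.26-fold (adjusted p = 1.684e-05) and at least 1.80-fold (adjusted p = 0.000235).

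A further set of falls lay together on chromosome 4. Of 7 genes that follow each other on this chromosome among the 1179 on the array, 5 were called lower at 23M, beside 0.543% of all genes. The stretch was drawn with a called gene at each end, so that this count is a description and no test. The called genes were Gm3893, lower by 3.24-fold, Gm10591 by at least 1.97-fold, Gm13304 by at least 1.62-fold and Fam205a2 by 1.80-fold. The last was Ccl21b, which was not above the negative controls at either age (-0.83 ± 0.16, adjusted p = 0.00344). Gm10591 was at 4.90, 5.26 and 6.00 at 23M against 6.41, 6.95 and 7.28 at 6M, and Gm3893 at 6.55, 6.74 and 7.36 at 23M against 7.78, 8.75 and 8.99 at 6M. In both genes every 23M array was below every 6M array. The other 2 genes of the stretch, Gm21953 and Fam205a3, were not called (adjusted p = 0.3262 and 0.6031). RefSeq lists Gm10591 and Gm13304 under the names of Ccl21b and Ccl21c, copies of the gene for CCL21, a chemokine that draws dendritic cells and T cells through the receptor CCR7. The stretch is known to differ in copy number among mouse strains. The Ccl21b and Ccl21c rows were identical on all arrays, so that they are 1 measurement, and which copy each remaining row measures is uncertain. The 250 bases before the start of Gm10591 and of a further copy, Ccl21d, are given to show how close some of the copies are (RefSeq, GRCm38.p6, + strand, chr4:42611873-42612122 and chr4:41903363-41903612), with the only base that differs between them in capitals.
Gm10591: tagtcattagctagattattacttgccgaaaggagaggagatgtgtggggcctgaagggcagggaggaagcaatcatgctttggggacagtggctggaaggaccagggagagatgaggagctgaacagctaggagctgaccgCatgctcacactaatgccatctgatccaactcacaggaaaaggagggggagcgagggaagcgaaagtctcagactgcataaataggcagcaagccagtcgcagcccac
Ccl21d: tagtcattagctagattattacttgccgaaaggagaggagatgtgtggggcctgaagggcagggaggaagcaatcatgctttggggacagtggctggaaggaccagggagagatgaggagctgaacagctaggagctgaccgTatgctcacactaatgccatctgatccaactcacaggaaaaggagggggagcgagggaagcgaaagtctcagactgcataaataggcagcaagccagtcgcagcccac
Over the window of 300 bases that ends 50 bases after the start, the promoters of Gm10591 and Gm13304 had the same sequence throughout, and those of Gm10591 and Ccl21d were equal at 299 positions, with the substitution C143T counted from 1 at the 5′ end of the window. That of Ccl21a was equal to Gm10591 at 296 of 299 positions at a shift of 1 base. The window of Ccl21b was compared with that of Gm10591 without a shift only. It was equal at 89 of 300 positions, a count that does not measure how close these copies are. Ccl21a itself was at 6.11 ± 0.21 at 23M and 6.34 ± 0.13 at 6M and was not called (adjusted p = 0.2872).

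Immediate early genes, which cells transcribe within minutes of a stimulus, had lower means at 23M in most members. Of 48 measured members of this list, 45 had a difference below 0, with a median of -0.89 against 0.00 over all genes. Only 4 were called lower, beside 0.543% of all genes, and 0 were called higher, while 30 were lower and 0 higher at an unadjusted p under 0.05. SAM, the test of the study's methods, called 15 lower and 0 higher. Fosb, a subunit of the transcription factor AP-1, was at 10.11, 11.38 and 15.70 at 23M against 13.58, 15.66 and 17.24 at 6M, 10.4-fold lower (-3.38 ± 0.83, adjusted p = 0.03038). The ages overlapped, because replicate 5 of 23M (15.70) lay inside the 6M range. Dusp6, a phosphatase that switches off ERK, was 6.87-fold lower (adjusted p = 0.03768), Ccn1, a matricellular protein induced by growth factors, 2.92-fold lower (adjusted p = 0.02072) and Ppp1r15a, the stress protein GADD34, 2.54-fold lower (adjusted p = 0.04188). Ptgs2, the inducible cyclooxygenase, did not overlap between ages and was 2.91-fold lower (adjusted p = 0.03845), the only called member of 54 cytokine, chemokine and NF-kB feedback genes, and leaving out any of 9 arrays removed the call. Egr1 (-1.76, adjusted p = 0.06135), Ier2 (-1.62, adjusted p = 0.09185) and Fos (-1.47, adjusted p = 0.3772) were not called. With the BL6 arrays alone Egr1 (adjusted p = 0.02809) and Ier2 (adjusted p = 0.003107) were called, while Dusp6 (adjusted p = 0.09225) and Ppp1r15a (adjusted p = 0.07012) were not. The calls of Fosb, Dusp6, Ccn1 and Ppp1r15a were lost on leaving out any of 8, 10, 5 and 9 single arrays.

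The mean level of the 48 genes was 9.27, 9.83 and 11.31 at 23M against 10.11, 10.91 and 12.10 at 6M. On 4 of 7 arrays at 23M it was below all 6M arrays, and on replicates 2 (10.33), 4 (10.23) and 5 (11.31) of 23M it was inside the 6M range. The leading principal component of the 14 arrays, with 22.2% of the variance, correlated with this level at r = 0.948, a description over 14 arrays that share these genes. The count of 4 depended on single arrays: it was 12 without replicate 5 of 23M and 0 without replicate 6 or 7 of 23M or replicate 3, 5 or 6 of 6M. It was 5 with the BL6 arrays alone, and 0 with an intensity trend and robust moderation in limma.

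**Figure D3:**
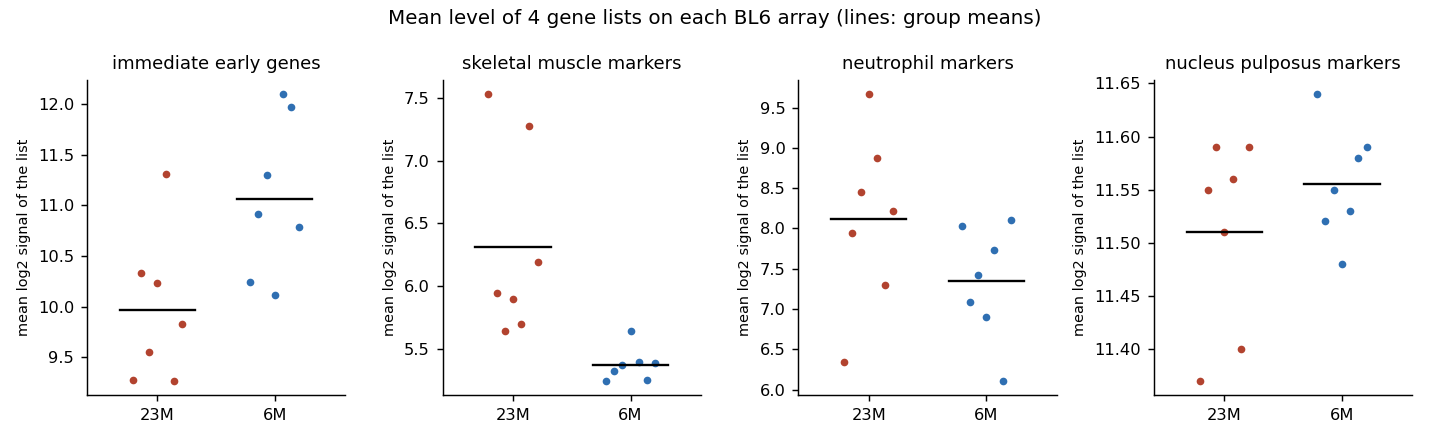
Mean log2 level (y axis) of the immediate early genes, the skeletal muscle markers, the neutrophil markers and the nucleus pulposus markers on each of the 14 BL6 arrays, each point an array of 23M or 6M and each line a group mean. The muscle level was above all 6M arrays on all 7 arrays at 23M, with replicates 1 (7.53) and 6 (7.27) highest, while the nucleus pulposus level stayed between 11.37 and 11.64 on all arrays.

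Genes induced by interferon were lower at 23M in a few members. Of 40 measured, 4 were called, all lower, beside 0.543% of all genes, and the median difference was -0.11. SAM called 7 lower and 1 higher. Irf7, the factor that amplifies type I interferon production, was at 7.98, 8.63 and 9.80 at 23M against 9.63, 10.25 and 10.88 at 6M, 2.92-fold lower (-1.55 ± 0.30, adjusted p = 0.004384), with replicate 5 of 23M (9.80) inside the 6M range. Ifit1, which binds viral RNA that lacks a complete cap, averaged 5.96 ± 0.45 at 23M and 7.05 ± 0.87 at 6M (-1.10 ± 0.29, adjusted p = 0.04437), Xaf1, a promoter of apoptosis, was lower by -0.61 ± 0.13 (adjusted p = 0.01248), and Mx2, an antiviral GTPase, by -0.57 ± 0.14 (adjusted p = 0.03696). The calls of Ifit1 and Mx2 were lost on leaving out any of 9 and any of 10 of the 14 arrays, one at a time, whereas those of Irf7 and Xaf1 were kept in all 14 such fits. Irf7 was at -0.92 and not called with the immediate early level as a covariate (adjusted p = 0.1298), and at -1.43 with the muscle level (adjusted p = 0.09395). The interferon-stimulated response element, searched as GAAANNGAAA on both strands in the 250 bases before the start, was present in 978 of 32851 promoters (2.98%) of RefSeq and in 15 of the 30 interferon genes with a promoter there. Of the 4 called genes 3 had a promoter and 1, Ifit1, held the motif. Its 250 bases before the start (RefSeq, GRCm38.p6, + strand, chr19:34640639-34640888) are given with both matches, which read on the opposite strand, in capitals.
Ifit1: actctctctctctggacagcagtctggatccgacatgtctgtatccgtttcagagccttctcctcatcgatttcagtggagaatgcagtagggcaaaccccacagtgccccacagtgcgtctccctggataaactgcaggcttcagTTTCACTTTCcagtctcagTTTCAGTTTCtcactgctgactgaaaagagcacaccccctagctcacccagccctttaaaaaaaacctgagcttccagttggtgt
Of 16 antigen presentation genes 2 were called, both higher, beside 1.12% of all genes. H2-K1, the class I heavy chain, was at 12.61 to 12.95 at 23M and 11.78 to 12.57 at 6M, without overlap (1.52-fold higher, adjusted p = 0.006162). H2-T23, the non-classical molecule Qa-1, was 1.57-fold higher (adjusted p = 0.0298), a call that leaving out any of 6 arrays removed.

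Factors of the TGF-beta and BMP family are known to maintain the disc matrix. Of 45 measured genes of this signalling, 40 were not called, 2 were called higher (1.12% of all genes) and 3 lower (0.543% of all genes), and the median difference was 0.03. The ligand gene Tgfb1 rose 1.67-fold (10.09 ± 0.16 at 23M and 9.35 ± 0.30 at 6M, SD, adjusted p = 0.00584), with no overlap, and Bmp7 rose 1.71-fold (9.87 ± 0.33 at 23M and 9.10 ± 0.31 at 6M, adjusted p = 0.00994). Neither call was lost without a single array, but that of Tgfb1 was lost with the muscle level and that of Bmp7 with the neutrophil or immediate early level as a covariate. The receptor gene Tgfbr2 was 1.34-fold lower (12.06 ± 0.22 at 23M and 12.48 ± 0.07 at 6M, adjusted p = 0.02114), a difference that was not called without replicate 6 of 6M (-0.39, adjusted p = 0.05117). That call was also lost with the neutrophil, erythroid or immediate early level as a covariate. The targets Id1 and Id3 were 2.71-fold and 4.96-fold lower, with Id1 at 12.22, 12.56 and 13.75 at 23M against 13.26, 14.10 and 15.07 at 6M (adjusted p = 0.01265). The call of Id3 was kept in every alternative, while that of Id1 was lost with the muscle or immediate early level as a covariate. Id2, of the same family, was at 14.83 ± 0.56 at 23M and 15.61 ± 0.43 at 6M and was not called (adjusted p = 0.3127).

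Of 45 Wnt and hedgehog genes, 4 were called, all higher, beside 1.12% of all genes. The median difference was 0.01, with 24 members above 0 and 21 below. There were 6 higher and 4 lower at an unadjusted p under 0.05, and 5 higher and 0 lower by SAM. The ligand Wnt10a rose 2.22-fold without overlap (7.64 ± 0.42 at 23M and 6.49 ± 0.23 at 6M, adjusted p = 0.0002304). Dkk3, of the Dickkopf family of secreted proteins, rose 1.71-fold (adjusted p = 0.01241), and the receptors Fzd4 and Fzd9 rose 1.58-fold and 1.54-fold (adjusted p = 0.02404 and 0.008116), the call of Fzd4 being lost on leaving out any of 5 arrays. Dkk3 was not called with the muscle level (0.44, adjusted p = 0.4797) or the immediate early level (adjusted p = 0.1079) as a covariate, nor without replicates 1 and 6 of 23M (adjusted p = 0.07064). In the FGF and Notch list of 31, only Etv5, a transcription factor downstream of FGF receptors, was called (0.94, adjusted p = 0.04079), and any of 11 arrays removed that call. Of single genes chosen after their values were seen, Lepr, the leptin receptor, averaged 12.61 ± 0.25 at 23M and 11.71 ± 0.35 at 6M (adjusted p = 0.001195), and Ghr, the growth hormone receptor, 9.81 ± 0.44 at 23M and 8.97 ± 0.15 at 6M (adjusted p = 0.005814). In neither did the ages overlap.

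The structural matrix genes gave almost no calls, beside 1.12% of all genes called higher and 0.543% lower. Of 38 collagen genes 0 were called (2 lower and 1 higher at an unadjusted p under 0.05, 1 higher by SAM), with a median of 0.04, and of 21 cartilage genes 0 were called (0 lower and 2 higher at an unadjusted p under 0.05, 0 by SAM). Acan, which encodes aggrecan, was at 17.92, 18.01 and 18.18 at 23M against 17.64, 17.84 and 18.15 at 6M (adjusted p = 0.5026). Col2a1, the main cartilage collagen, averaged 8.59 ± 0.40 at 23M and 8.45 ± 0.48 at 6M (adjusted p = 0.913), and its small difference of 0.14 turned to -0.0024 without replicate 4 of 6M. Of 35 matrix proteases and inhibitors 0 were called by limma (1 lower and 5 higher at an unadjusted p under 0.05), while SAM called 1 higher and 1 lower. Prg4 and Ibsp were the 2 called members of 44 proteoglycans and glycoproteins, and among 17 genes of osteoblasts and mineralization Mef2c was higher and Ibsp lower. Mef2c was also the only called gene of 11 hypertrophic chondrocyte genes. The 22 nucleus pulposus markers had 0 called members (3 lower and 2 higher at an unadjusted p under 0.05, 1 lower by SAM).

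Skeletal muscle genes were the list with the most called members. Of 38 measured, 12 were called higher, beside 1.12% of all genes, and 0 lower (23 higher and 0 lower at an unadjusted p under 0.05, 14 higher and 0 lower by SAM). All but 2 had a difference above 0, and the median was 0.63. Tnnt3, fast troponin T, was at 6.96, 8.32 and 11.21 at 23M, while at 6M it was not above the negative controls, a rise of at least 7.63-fold (adjusted p = 0.001204). Acta1, the sarcomeric actin, rose at least 6.17-fold (adjusted p = 0.00994), and Myl1, a fast myosin light chain, at least 5.95-fold (adjusted p = 0.008866). Atp2a1, the calcium pump of the sarcoplasmic reticulum, rose at least 3.61-fold (adjusted p = 0.00852). Mylpf, Myh4, Tnni2, Ttn, Pvalb, Mb, Tnnc2 and Ckm, all of which encode proteins of fast or mixed muscle fibres, made up the rest. Without the bound, the smallest log2 difference was in Ckm (0.65), which was above the negative controls at both ages. Ttn and Tnnc2 were not above them at 6M, and each rose at least 1.29-fold. Of the 38 genes, 7 were above the negative controls at both ages. Myh8, the perinatal myosin, is not in the list and rose 5.74-fold (adjusted p = 0.007515).

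The muscle level of the 38 genes was 5.65, 5.95 and 7.53 at 23M against 5.25, 5.37 and 5.64 at 6M, and all 7 arrays at 23M were above all 6M arrays. Replicates 1 (7.53) and 6 (7.27) of 23M stood apart, and on them Tnnt3 was at 11.21 and 11.07. Without these 2 arrays, a choice made after seeing the data, 8 muscle genes were called higher, with Tnnt3 at 2.22 (adjusted p = 0.004233) and Acta1 at 1.92 (adjusted p = 0.04277), while Tnni2, Pvalb, Mb and Ckm were not called. The same 2 arrays belong to the 3 at 23M with a high Y-linked level and have the lowest neutrophil levels of their age. The part of muscle tissue around the disc in these values was not tested. With the BL6 arrays alone 7 muscle genes were called.

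Markers of blood and marrow cells varied widely at both ages. The mean level of 24 neutrophil markers was 6.34, 8.22 and 9.67 at 23M against 6.11, 7.43 and 8.10 at 6M, so that 4 arrays at 23M were above all 6M arrays. By limma 0 of them were called (1 lower and 9 higher at an unadjusted p under 0.05, 2 higher by SAM), and the median difference was 0.82. S100a8 and S100a9, the alarmins of neutrophil granules, were at 12.80 ± 2.21 and 11.72 ± 2.14 at 23M and at 11.44 ± 1.89 and 10.42 ± 1.85 at 6M (adjusted p = 0.5068 and 0.5159). Among 14 erythroid markers 1 was called higher, beside 1.12% of all genes. It was Sptb, the erythrocyte spectrin chain (0.80, adjusted p = 0.03707), and any of 8 arrays removed the call. The erythroid and neutrophil levels correlated at r = 0.921 over the 14 arrays, which share their libraries. Jchain, the chain that joins IgA and IgM, was at 4.49, 5.97 and 7.53 at 23M, while at 6M it was not above the negative controls (1.37, adjusted p = 0.03079). It was at 0.76 and not called with the neutrophil level as a covariate (adjusted p = 0.1101), and leaving out any of 8 arrays removed the call. Of 14 B cell markers 0 were called (0 also at an unadjusted p under 0.05 and by SAM).

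Mbp, which encodes myelin basic protein and, from an upstream start, the golli proteins of blood cells, rose 9.99-fold on average with a wide spread at 23M (SD 2.32, n = 7). It was at 6.56, 10.09 and 12.73 at 23M against 5.99, 6.88 and 7.46 at 6M (3.32 ± 0.62, adjusted p = 0.003316). The lowest 23M array, replicate 1, was inside the 6M range, and the highest, replicate 4, was the array with the highest neutrophil level. With the neutrophil level as a covariate the difference was 2.28 (adjusted p = 0.008641), and without replicates 1 and 6 it was 4.33 (adjusted p = 8.205e-06). The neurofilament genes Nefl and Nefm were the other called members of 9 nerve and glia markers, beside 1.12% of all genes called higher. Both were not above the negative controls at either age, and any of 11 arrays removed the call of each.

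Other cell types had 1 called marker each, or none, beside 1.12% of all genes called higher and 0.543% lower. Gpnmb, a glycoprotein of macrophages and osteoclasts, was at 12.87, 13.38 and 13.68 at 23M against 11.89, 12.24 and 12.68 at 6M, a 2.17-fold rise without overlap (adjusted p = 3.612e-05), the only called gene of 24 macrophage and monocyte markers. Flt1, the VEGF receptor 1, was 1.66-fold lower without overlap (10.67 ± 0.24 at 23M and 11.40 ± 0.25 at 6M, adjusted p = 0.01248), the only called gene of 17 endothelial markers. Plin4, a lipid droplet protein, rose 1.94-fold (adjusted p = 0.003834) among 13 adipocyte markers. Mcam, the adhesion molecule CD146 of pericytes, rose 2.86-fold (adjusted p = 0.04206), and Dsc3, a desmosomal cadherin of epithelia that is high in this tissue (14.28 ± 0.22 at 23M and 14.79 ± 0.24 at 6M), was 1.43-fold lower (adjusted p = 0.04287). The calls of Mcam and Dsc3 were each lost on leaving out any of 11 arrays. Mcam was the only called gene of 12 smooth muscle and pericyte markers, whose mean level was above all 6M arrays on 6 of 7 arrays at 23M. Dsc3 was the only called gene of 12 keratinocyte markers, of which 10 had a difference below 0 and 3 were above the negative controls. Their mean level was 5.742 to 5.991 at 23M and 6.075 to 6.229 at 6M, without overlap, and SAM called 2 lower. Gzma, a cytotoxic granule protease, was called lower among 20 T and NK cell markers but was not above the negative controls at either age, and the call was lost with the BL6 arrays alone (adjusted p = 0.05314) and on leaving out any of 7 arrays. Of 11 osteoclast markers and of 18 markers of annulus, tendon and fibroblasts 0 were called (1 higher and 1 lower at an unadjusted p under 0.05, 0 by SAM).

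The oxygen response and energy metabolism gave few calls, all of them higher, beside 1.12% of all genes. In glycolysis and the response to hypoxia 2 of 40 genes were called, both higher. At an unadjusted p under 0.05, 9 were higher and 1 lower, and SAM called 3 higher and 1 lower. The mean level of the 40 genes was 12.53 to 12.87 at 23M and 12.44 to 12.53 at 6M. On all 7 arrays at 23M it was above all 6M arrays. Adm, the vasodilator adrenomedullin, a target of HIF, was at 11.57, 12.70 and 12.90 at 23M against 9.88, 10.78 and 11.69 at 6M, 3.02-fold higher (adjusted p = 0.002894), and 1 array at 23M overlapped the 6M range. Car9, the carbonic anhydrase that exports acid from hypoxic cells, rose 2.06-fold without overlap (11.12 ± 0.53 at 23M and 10.07 ± 0.30 at 6M, adjusted p = 0.004875). In oxidative phosphorylation 1 of 74 genes was called, a share near the 1.12% of all genes called higher, Ndufv1 of complex I (1.34-fold higher, adjusted p = 0.01084), while 61 had a difference above 0 (median 0.10). In the tricarboxylic acid cycle 1 of 20 was called, the citrate synthase gene Cs (11.85 ± 0.10 at 23M and 11.44 ± 0.11 at 6M, 1.33-fold higher, adjusted p = 0.0142), and 18 were above 0 (median 0.19). With the muscle level as a covariate Car9, Ndufv1 and Cs were not called. Of 26 fatty acid oxidation genes 0 were called (1 higher at an unadjusted p under 0.05, 0 by SAM) and of 21 lipid and cholesterol synthesis genes also 0 (2 lower and 1 higher, 0 by SAM).

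Of the stress and protein quality lists, Gpx3, the secreted glutathione peroxidase, was the only called gene of 33 antioxidant genes, at 14.96, 15.38 and 15.84 at 23M against 13.79, 14.24 and 14.69 at 6M (2.21-fold higher without overlap, adjusted p = 0.0002304). At an unadjusted p under 0.05, 7 of the 33 were higher and 0 lower, and SAM called 2 higher. Their mean level was 11.57 to 11.74 at 23M and 11.46 to 11.52 at 6M, without overlap. Gabarapl1, which decorates autophagosome membranes, was the only called gene of 36 autophagy and lysosome genes, 1.91-fold higher without overlap (12.85 ± 0.15 at 23M and 11.92 ± 0.25 at 6M, adjusted p = 0.001204). The calls of Gpx3 and Gabarapl1 were kept in every alternative. Of 26 heat shock proteins, Hspb7, a small heat shock protein of striated muscle, was higher (at least 1.58-fold, adjusted p = 0.01971, not called without replicate 3 of 6M at 1.00, adjusted p = 0.05995) and the inducible Hspa1a lower (2.37-fold, adjusted p = 0.03768, lost without any of 9 arrays). Ern1, the sensor IRE1 of the unfolded protein response, was called among 32 genes of endoplasmic reticulum stress (0.43, adjusted p = 0.02522, lost without any of 6 arrays). The complement gene C4b rose 2.30-fold (adjusted p = 0.01891) and the coagulation factor gene F5 1.87-fold (adjusted p = 0.01084), the 2 called members of 25. C4b was at 1.11 and not called without replicate 2 of 23M (adjusted p = 0.05163). Beside these lists, 1.12% of all genes were called higher and 0.543% lower.

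Of 22 genes of senescence and the p53 response, 3 were called, all higher, beside 1.12% of all genes, and 1 was called with the BL6 arrays alone. The list did not move 1 way: 13 members had a difference above 0 and 9 below, from -3.52 to 1.09. At an unadjusted p under 0.05, 5 were higher and 4 lower, and SAM called 3 higher and 1 lower. Igfbp5, which binds insulin-like growth factors, rose 2.13-fold (8.81 ± 0.67 at 23M and 7.72 ± 0.26 at 6M, adjusted p = 0.01248), Cdkn1c, the cell cycle inhibitor p57, 1.64-fold (adjusted p = 0.02918) and Aen, a p53-induced nuclease, 1.41-fold (adjusted p = 0.04256). The last 2 calls were lost without any of 6 and any of 10 arrays, and Igfbp5 was not called with the muscle level (0.71, adjusted p = 0.4009) or the immediate early level (adjusted p = 0.07237) as a covariate, nor without replicates 1 and 6 of 23M (adjusted p = 0.07606). Cdkn1a, the inhibitor p21, was at 12.53, 13.41 and 14.91 at 23M against 11.84, 13.13 and 13.87 at 6M and was not called (adjusted p = 0.7026). The genes of the cell cycle, apoptosis, the circadian clock and splicing had 0 called members of 42, 33, 19 and 32. At an unadjusted p under 0.05, 10 cell cycle genes were higher, 5 apoptosis genes lower, 3 clock genes lower and 5 splicing genes lower with 2 higher, and SAM called 2 cell cycle genes higher, 1 clock gene and 2 splicing genes lower and 0 apoptosis genes.

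In the lists of ion and calcium handling and adhesion the calls were few and mostly small, beside 1.12% of all genes called higher. Of 38 calcium genes 4 were higher: Atp2a1 and Pvalb, which are also in the muscle list, Camk2b, a calcium-dependent kinase subunit (1.63-fold, without overlap, adjusted p = 0.003211), and Cacna1d, a voltage-gated channel subunit that was not above the negative controls at either age and lost its call on leaving out any of 7 arrays. Slc6a6, the taurine transporter of osmotic regulation, was the only called gene of 25 (16.04 ± 0.26 at 23M and 15.59 ± 0.14 at 6M, adjusted p = 0.03038), and any of 6 arrays removed that call. Lgals1 and Sdc3 were called higher among 33 adhesion genes (1.43-fold and 1.58-fold), and 10 and 11 single arrays, left out one at a time, removed these calls. Further rises, chosen after their values were seen, were in Apoe, the lipid carrier, which was at 17.34 to 17.91 at 23M and 16.64 to 17.22 at 6M (1.64-fold, adjusted p = 0.002758), in Axl, a receptor for apoptotic cells (2.21-fold, adjusted p = 0.01442), in Deptor, an inhibitor of mTOR (1.99-fold without overlap, adjusted p = 0.001136), and in Trim63, the muscle ubiquitin ligase MuRF1 (at least 2.20-fold, adjusted p = 0.004778). With the BL6 arrays alone Axl was not called (adjusted p = 0.05314).

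**Figure D4:**
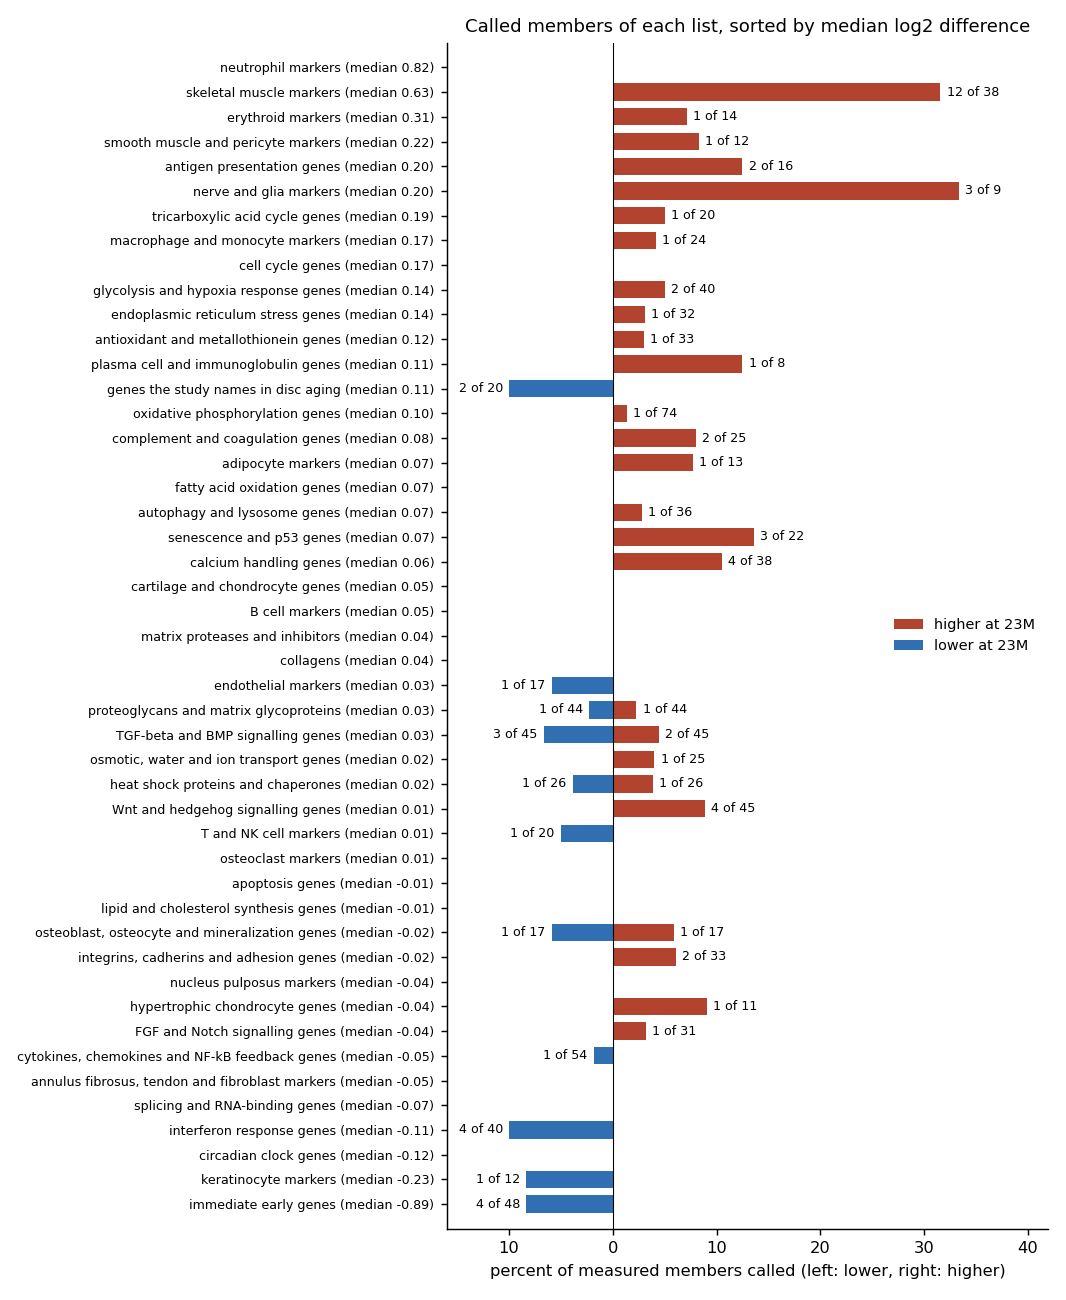
Percent of the measured members of each gene list that were called at 23M (x axis, higher to the right in red, lower to the left in blue), with the lists on the y axis in the order of their median log2 difference. The skeletal muscle list had the most called members, 12 of 38, while the nucleus pulposus, cartilage, collagen and neutrophil lists had 0.

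Of 20 genes that the study names in disc aging, 2 were called, both lower, Fosb and Dusp6, beside 0.543% of all genes. The study's text names the 20 from LG/J against BL6 at 23M or from protein staining, and not from 23M against 6M in BL6. A count in this age comparison is therefore no repeat of the study's result. The study's choice used some of the same samples, so that the count is not independent evidence. Col10a1, the collagen of hypertrophic cartilage, was at 6.75, 8.33 and 9.91 at 23M against 6.42, 7.30 and 8.11 at 6M and was not called (1.04, adjusted p = 0.4401).

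The same ages in LG/J mice gave 473 called genes (2.43%), with 290 of them higher at 23M and 183 lower. In this strain the Y-linked level was 9.18 to 9.75 on all 23M arrays and 3.28 to 3.70 on all 6M arrays, so that age and sex cannot be told apart there. Of the 324 genes called in BL6, 57 (17.6% of BL6 calls and 12.1% of LG/J calls) were called in the same direction in LG/J, 40 higher and 17 lower, and 244 (75.3%) had a difference of the same sign. The share with the same sign over all genes was not computed, so that the 75.3% does not measure how far the strains agree. Slc38a5 was higher by 4.11 in BL6 and 4.95 in LG/J, Serpina3n by 3.27 and 2.98, Apod by 2.61 and 2.59, Prg4 by 2.56 and 2.18, and Trf by 1.91 and 3.80. Ibsp was at -2.91 in BL6 and -3.11 in LG/J, and Fam205a2 at -0.85 and -0.95. All 7 of these genes were called in both strains.

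The difference of the age effects, BL6 minus LG/J, was called for 83 genes (0.426%), 27 above 0 and 56 below, and for 29 of the 324 genes called in BL6. Only 6 genes were called in opposite directions. Id1, Id3, Ifi211, Tafa5 and Tm4sf1 were lower at 23M in BL6 and higher in LG/J, and Lrp3, a receptor of the LDL receptor family, was the reverse. Id3 was at -2.31 in BL6 and 1.89 in LG/J (difference -4.20 ± 0.61, adjusted p = 0.0009078). Sirpa, at 1.32 in BL6, was at -0.29 in LG/J (difference 1.61 ± 0.18, adjusted p = 6.216e-05), where its level was 12.97 ± 0.24 at 23M (SD, n = 6) and 13.25 ± 0.38 at 6M (SD, n = 4). Of the 48 immediate early genes, 7 were called higher at 23M in LG/J, with a median of 0.67, and 7 had a called difference of the age effects, all below 0. Fosb was at -3.38 in BL6 and 2.89 in LG/J (adjusted p of the difference = 0.02182). The 38 muscle genes had a median difference of 0.04 in LG/J, and their level there was 5.01 to 5.81 at 23M and 5.01 to 5.13 at 6M. For Gm10591 and Gm13304 the LG/J differences were 0.02 and 0.11, at levels not above the negative controls of that strain (adjusted p of the difference = 0.004775 and 0.004844).

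**Figure D5:**
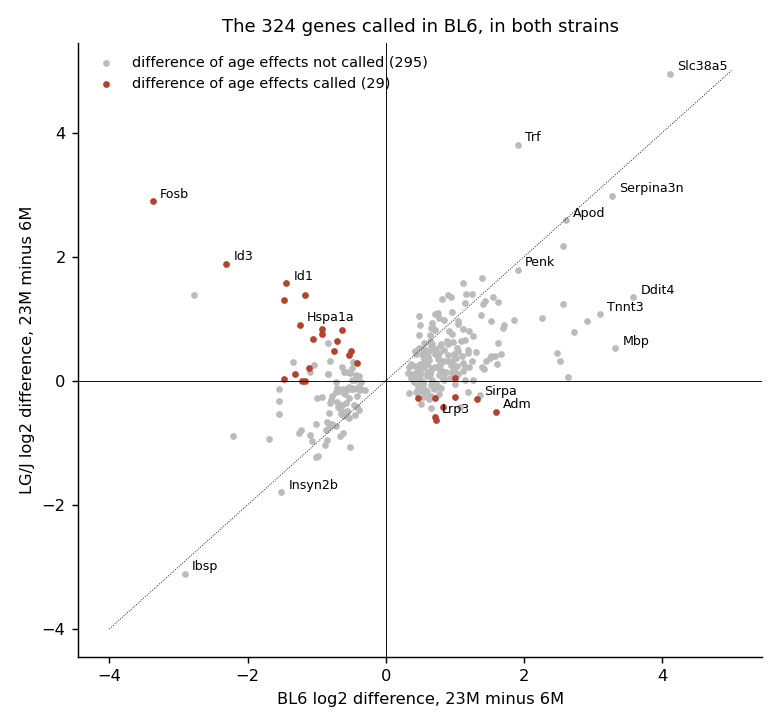
Log2 difference between 23M and 6M in BL6 mice (x axis) and in LG/J mice (y axis) for the 324 genes called in BL6, each point a gene, with the 29 genes in red for which the difference of the age effects was called. The dotted line marks equal differences, the members were chosen on the x axis, and 244 points share the sign of both differences. The share over all genes was not computed.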

How the data were processed

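Nucleus pulposus RNA was measured on 1-colour Clariom S arrays, 1 animal per array. Per the labels and the study's methods, the authors normalized the deposited log2 values in Affymetrix Expression Console by RMA (SST-RMA in the methods), with arrays of the series together. The genome build behind the annotation of the probes was not stated in the labels or methods. The table held 28846 rows, of which 6640 were controls and 2634 carried no single symbol. The 19572 rows with 1 symbol gave 19505 genes, with the row of the highest mean kept for the 55 genes that had several, without a filter on dim genes. The SM/J arrays were not used here.

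The 24 BL6 and LG/J arrays, grouped by the strain and age labels, were fitted by group in limma 3.58.1 (R 4.3.3) with eBayes, and 23M minus 6M was tested in BL6, in LG/J and as the difference of both. p-values were adjusted by Benjamini-Hochberg over all genes, and genes below 0.05 were called. The script was tested on simulated data. The number of arrays limits the precision, and since nothing states that animals came from separate litters or cages, p-values measure the spread between these animals only. SAM, with 100 permutations at a false discovery rate of 5%, was recomputed as an alternative. Further alternatives were BL6 arrays alone, moderation, array weights, normalization, filters on dim genes, marker levels as covariates and leaving out each array. Gene names follow the annotation of the array, and promoter sequences come from RefSeq (GRCm38.p6), in which 83 of 112 named genes had an entry.

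Named genes were the 10 largest called differences per direction without overlap between ages and above the negative controls, up to 6 called members per direction of each list, up to 2 members of the highest level in lists with no call, the genes the study names, and the largest differences between strains. Genes outside this rule are marked as chosen after their values were seen, except Spint2, Penk, Myh8, Gas6, Ccl21a and the other genes of the chromosome 4 stretch, which were also chosen that way. The members and lists were chosen with earlier results of these data known.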

Additional observations from a re-analysis of the deposited data

Results flagged for a closer look

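Of 234 groups of 7 values examined, 7 had 1 array set apart from the others by more than Dixon's critical share of the range, where chance sets about 1 in 20 apart. At 23M, Tgfbr2 was at 11.61 on replicate 3 (11.98 to 12.22 on the others), Ifit1 at 5.03 on replicate 6 (5.85 to 6.30) and Aen at 7.61 on replicate 6 (6.91 to 7.17). At 6M, Tgfbr2 was at 12.64 on replicate 6 (12.41 to 12.48), Tgfb1 at 8.74 on replicate 2 (9.31 to 9.71), Mx2 at 6.28 on replicate 7 (6.87 to 7.18) and the skeletal muscle level at 5.64 on replicate 4 (5.25 to 5.40).

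The age effect differed between strains in 19 of the 112 named genes, beside 83 of all 19505 genes (0.426%). Some of the 112 were named for this difference, and many for their BL6 age effect, which enters it. The count of 19 is therefore a description and no test. The difference is given as BL6 minus LG/J on the log2 scale with limma's adjusted p. It was above 0 in Col10a1 (4.42, 0.01332), Adm (2.095, 0.03321), Sirpa (1.61, 6.216e-05) and Lrp3 (1.29, 0.0006499). Among immediate early and ID genes it was below 0 in Fosb (-6.27, 0.02182), Fos (-5.23, 0.02431), Ier2 (-4.62, 0.002778), Egr1 (-4.29, 0.004775), Id3 (-4.20, 0.0009078), Id2 (-3.34, 0.002568) and Id1 (-3.01, 0.003003). It was also below 0 in Ifi211 (-2.55, 0.002778), Hspa1a (-2.15, 0.04624), Tafa5 (-1.76, 0.003979), Gm10591 (-1.50, 0.004775), Tm4sf1 (-1.46, 0.004775), Gm13304 (-1.42, 0.004844), Acvr1c (-1.31, 0.01454) and Dclk1 (-1.20, 0.00834). Age and sex cannot be told apart in LG/J, nor can strain and the date in the array titles.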

How the results depend on the processing

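Against 324 genes called (218 higher, 106 lower), 198 were called with the muscle level as a covariate (102 of them among the 324, 48 lower) and 146 with the immediate early level (124 shared, 106 higher, 40 lower), the last an alternative chosen after seeing the data. SAM called 575 (319 shared, 351 higher, 224 lower), and 99 reached 2-fold (70 higher, 29 lower). Leaving out 1 array gave 224 to 313 in all, 159 to 225 higher and 65 to 113 lower, the lowest total without replicate 3 of 6M. The other totals ran from 229 (1.5-fold) to 441 (array weights). The 83 called differences of age effects were 131 and 126 with filters on dim genes, 43, 48 and 18 with the Y-linked, muscle and immediate early level as covariates, and 58 to 134 without 1 array, the highest without replicate 5 of 23M.

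The 12 muscle calls were 7 with the BL6 arrays alone, 19 with the neutrophil or the erythroid level and 0 with the muscle or the immediate early level as covariates, and 9 to 15 without 1 array. The 4 immediate early calls were 7 with the neutrophil and 10 with the erythroid level, 0 with the muscle or immediate early level, with trend and robust moderation, or without replicates 1 and 6 of 23M, and 0 to 12 without 1 array. Muscle genes called lower and immediate early genes called higher were 0 to 0 in these fits. A list's own level as a covariate is the mean of the genes counted, so that the 0 calls with it are no test. The cause was not tested. Of 97 named genes called, 65 kept the call without each single array and 33 in all settings, and 0 reversed. Uncalled values that reversed were S100a8 (-0.36) and S100a9 (-0.39) with the neutrophil level and Col2a1 (-0.0024 without replicate 4 of 6M, -0.0024 to 0.25 without any 1 array). Of the 97, 96 kept the call with the Y-linked level, 86 with the erythroid, 79 with the neutrophil, 41 with the immediate early and 39 with the muscle level. In BL6 the muscle level did not overlap between ages, so that the last count does not tell muscle level and age apart. No paired analysis was possible because the labels number the animals of the ages one after the other and name no pairs. Genes near the negative controls limit what these arrays can resolve.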

Other observations

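Gas6, which was chosen after its values were seen and encodes a ligand of the receptor Axl, was at 5.35, 5.74 and 6.57 at 23M against 4.13, 4.58 and 5.14 at 6M, without overlap (1.18 ± 0.20, limma adjusted p = 0.0008881), and was not above the negative controls at either age. Over the whole array 19 sets with 39 genes in all had identical rows, Ccl21b and Ccl21c among them, and each set is 1 measurement.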
